A study of Mus musculus with 34 samples.

Results

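Fabp1, Apoa1 and Vamp8 are 3 of the 1019 named genes, and 3 of the 1856 features, measured on 34 oligonucleotide arrays of mouse liver. They were chosen by symbol because their ratios of liver over reference RNA were very high, and because arrays of the same mouse disagreed about them. On every array the liver RNA of 1 mouse, in either dye, was hybridised together with a pooled reference RNA for mouse. The 7 thermoneutral mice (TN, 20 arrays) were kept without heat stress on endophyte-free fescue (E-), and the 6 heat-stressed mice (HS, 14 arrays) had chronic heat stress for 2 weeks. A temperature of 34 °C stands on 8 HS arrays, a start at 27 days of age on 7, and an end at 40 days on 5. The ICR strain is named on the labels of mice F222 and M242 alone. The sources used here do not give the diet of the HS mice, the age of the TN mice or any batch, so diet, age and batch cannot be told apart from heat stress. Mouse identifiers begin with F (3 TN and 3 HS mice) or M (4 TN and 3 HS mice). The labels call F222 and M242 female and M233 male, so the letter is used below as a letter and not as a sex. The oligonucleotides were designed on rat sequence, and each of the 3 genes had 1 spot. Whether these spots read the named mouse genes alone was not tested.

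Fabp1 and Apoa1 serve lipid transport in the liver, and Vamp8 serves vesicle traffic. Fabp1, the liver fatty acid binding protein, carries long-chain fatty acids through the cytosol of hepatocytes and enterocytes and is a classical target of the fatty acid sensor PPARA. Apoa1 is the main protein of high-density lipoprotein, secreted by liver and intestine, and in plasma it takes up cholesterol and activates the enzyme Lcat. Vamp8, also called endobrevin, is a SNARE protein of endosomes, lysosomes and secretory granules that helps vesicles fuse, among them autophagosomes with lysosomes, and is found in liver and in exocrine glands. Both Fabp1 and Apoa1 are under the control of the liver factors of the HNF1, HNF4 and FOXA families.

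Because Fabp1 and Vamp8 moved together across arrays, the 250 bases before the start of each gene are shown, from RefSeq on GRCm38.p6. All 3 symbols matched a RefSeq entry. Letters in capitals are matches to 4 short motifs, searched on both strands, which were picked with these sequences in view.
Fabp1 promoter, chr6:71199629-71199878, plus strand: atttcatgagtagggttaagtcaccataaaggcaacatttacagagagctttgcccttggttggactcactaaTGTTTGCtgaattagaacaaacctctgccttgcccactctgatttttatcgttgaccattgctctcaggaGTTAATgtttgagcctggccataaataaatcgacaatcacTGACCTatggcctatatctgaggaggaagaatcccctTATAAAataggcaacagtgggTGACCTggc
Apoa1 promoter, chr9:46228380-46228629, plus strand: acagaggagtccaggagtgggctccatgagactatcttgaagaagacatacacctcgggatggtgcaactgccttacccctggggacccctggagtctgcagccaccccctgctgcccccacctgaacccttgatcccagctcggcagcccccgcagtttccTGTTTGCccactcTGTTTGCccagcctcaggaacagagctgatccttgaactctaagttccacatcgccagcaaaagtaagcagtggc
Vamp8 promoter, chr6:72390668-72390917, minus strand: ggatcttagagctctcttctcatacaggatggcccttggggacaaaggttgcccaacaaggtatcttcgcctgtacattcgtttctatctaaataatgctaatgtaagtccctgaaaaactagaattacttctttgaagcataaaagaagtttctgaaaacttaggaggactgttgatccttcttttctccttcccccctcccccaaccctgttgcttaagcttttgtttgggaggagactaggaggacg
The nuclear receptor motif AGGTCA occurs 2 times before Fabp1, both on the minus strand (printed as its reverse complement), 67 to 62 and 9 to 4 bases before the start. Of 32851 promoters of this length 14.0% hold it. The FOXA core TGTTTNC occurs 1 time before Fabp1, 177 to 171 bases upstream, and 2 times before Apoa1, at 88 to 82 and at 75 to 69 bases, against 17.8% of promoters. The HNF1 motif GTTAAT lies 107 to 102 bases before Fabp1 (6.43% of promoters), and the TATA box TATAAA 30 to 25 bases before it (12.4%). None of the 4 was found in the Vamp8 window. These matches describe the letters and are not binding sites measured here.

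Expressed as log2 of liver over reference RNA, after each array was centred on its median, the 3 genes were among the highest on the array. Averaged over the 13 mice, the ratio was 4.71 for Fabp1 (26.1-fold), 4.59 for Apoa1 (24.1-fold) and 4.14 for Vamp8 (17.7-fold), while the median feature stood at −0.02. Fabp1 ranked 2, Apoa1 3 and Vamp8 7 among the named genes. Albumin (Alb) ranked first at 4.97, and Mgst1, a microsomal glutathione transferase, Serpina1, the antitrypsin gene, and Cyp2e1, an ethanol-oxidising cytochrome, stood at 4.58, 4.42 and 4.23. The prostacyclin synthase gene Ptgis (4.11), the retinol carrier Rbp4 (4.01) and Apob (4.00) completed the 10 highest. This level is what chose the genes, so it is given with no test. A ratio to a reference pool is not an amount of RNA, and ratios of different genes do not order their transcripts.

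On single arrays Fabp1 lay between −0.23 and 7.19 (median 5.76) and was above 0 on 32 of the 33 arrays with a value. Apoa1 lay between 1.39 and 6.10 (median 4.98) and was above 0 on 34 of 34 arrays. Vamp8 lay between −2.03 and 5.81 and was above 0 on 33 of 34. Most arrays held high values: Fabp1 exceeded 4 on 26 arrays, Apoa1 on 28 and Vamp8 on 27. A member lay more than 2 log2 units below its own mean over mice on 5 arrays, of which 4 were HS arrays of mice F222, F203 and F241 and 1 was a TN array of M244. On the other arrays Fabp1 ran from 3.62 to 7.19, Apoa1 from 3.12 to 6.10 and Vamp8 from 3.05 to 5.81.

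**Figure D1:**
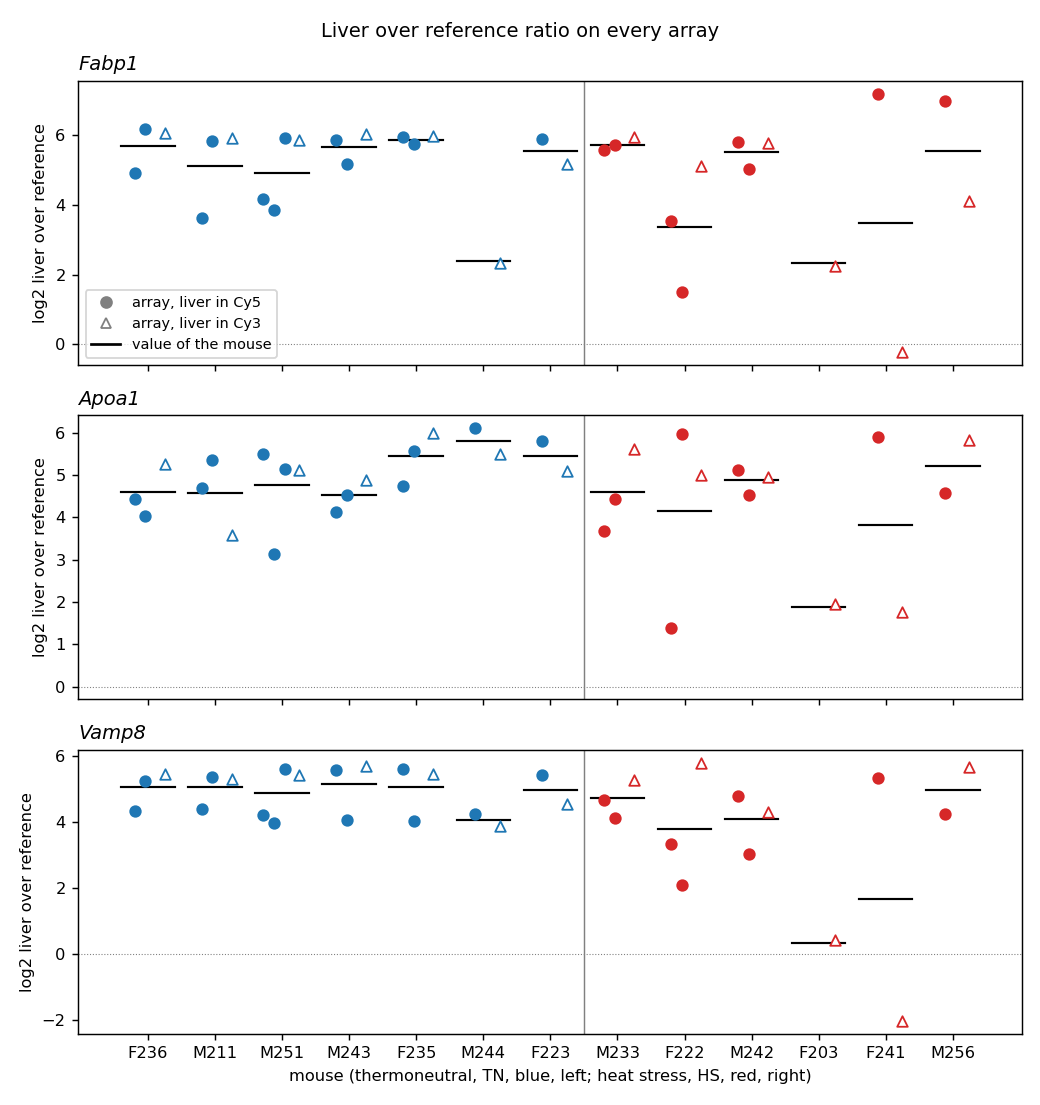
Log2 ratio of liver over reference (vertical axis) on every array of each mouse (horizontal axis), for Fabp1, Apoa1 and Vamp8; filled circles are arrays with liver RNA in Cy5, open triangles arrays with it in Cy3, black lines the value of the mouse, TN in blue and HS in red. The Cy3 array of F241 lies at −0.23 for Fabp1 and −2.03 for Vamp8, while its Cy5 array lies at 7.19 and 5.35.

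The largest disagreement between arrays of a mouse was in F241. With liver RNA in Cy5, Fabp1 read 7.19, its highest value on any array; with liver RNA in Cy3 it read −0.23, its lowest. Vamp8 read 5.35 and −2.03 on the same pair of arrays, and Apoa1 5.89 and 1.75. The liver of this mouse was therefore 146-fold above the reference for Fabp1 on one array and 0.853-fold on the other. The range of 7.42 for Fabp1 was the widest of the 1852 features with values on both arrays, and that of 7.38 for Vamp8 came next, against a median of 1.53 over features. Apoa1, at 4.14, ranked 55. Over the other features with a mean ratio above 3 the median range was 2.15. Of these 6 ranged wider than Apoa1, and 0 wider than Fabp1 or Vamp8. Other features were displaced as well: of 39 other features with a mean ratio above 3, 16 lay more than 2 units below their mean on the Cy3 array, among them Mgst1 at −0.31 against 4.59 on the Cy5 array. That array had the weakest correlation with the mean of the other mice of all 34 (r = 0.53 across features, median over arrays 0.79). On it 23 of the plasma protein genes still lay above the array median once turned by the dye label.

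F222 disagreed in another way, with different genes low on different arrays. Its first Cy5 array gave 3.55 for Fabp1, 1.39 for Apoa1 and 3.34 for Vamp8. Its second Cy5 array gave 1.49, 5.97 and 2.10, and its Cy3 array 5.13, 5.0 and 5.81. Apoa1 was thus low on the first array and high on the second, where Fabp1 and Vamp8 were low, and all 3 were high on the Cy3 array. The range of 4.58 for Apoa1 ranked 6 of 1856 features in this mouse, where the median feature ranged over 1.36. Over the 39 other features with a mean ratio above 3 the median range was higher, 2.69. Of these 3 ranged wider than Apoa1, and 13 wider than Fabp1 (3.64) and than Vamp8 (3.71). The first array had the lowest slope of all arrays against the mean of the other mice (0.64, with r = 0.58), and it had 12 of the 39 other strong features more than 2 units low. The second had 1 of 39.

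F203, an HS mouse, had a single array, with liver RNA in Cy3, on which Fabp1 read 2.26, Apoa1 1.95 and Vamp8 0.44. All 3 members lay more than 2 units below their mean there, and 0 of the 39 other strong features did, though Alb lay at −1.81 and Rbp4 at −1.09 from theirs. The members were the 3 lowest of these 42 features, by −2.45 for Fabp1, −2.64 for Apoa1 and −3.70 for Vamp8. The array otherwise followed the other mice (r = 0.82, slope 1.19), and Mgst1 stood at 5.02 on it. With 1 array and no dye swap, these values of F203 have no technical replicate.

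Among the TN mice only M244 had a member this low: Fabp1 read 2.33 on its Cy3 array, and its value on the Cy5 array was missing. Apoa1 in M244 read 6.10 (Cy5) and 5.50 (Cy3), and Vamp8 4.24 and 3.88, so Apoa1 was not low where Fabp1 was. In TN mice the range between arrays of a mouse had a median of 1.08 for Fabp1 (widest 2.31, in M211), 1.24 for Apoa1 (widest 2.37, in M251) and 1.12 for Vamp8 (widest 1.63). In the 5 HS mice with several arrays the medians were 2.90, 1.92 and 1.74. M256 (HS) added a range of 2.90 for Fabp1, with 7.00 in Cy5 and 4.10 in Cy3, though Vamp8 ran the other way there, with 4.25 and 5.69.

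**Figure D2:**
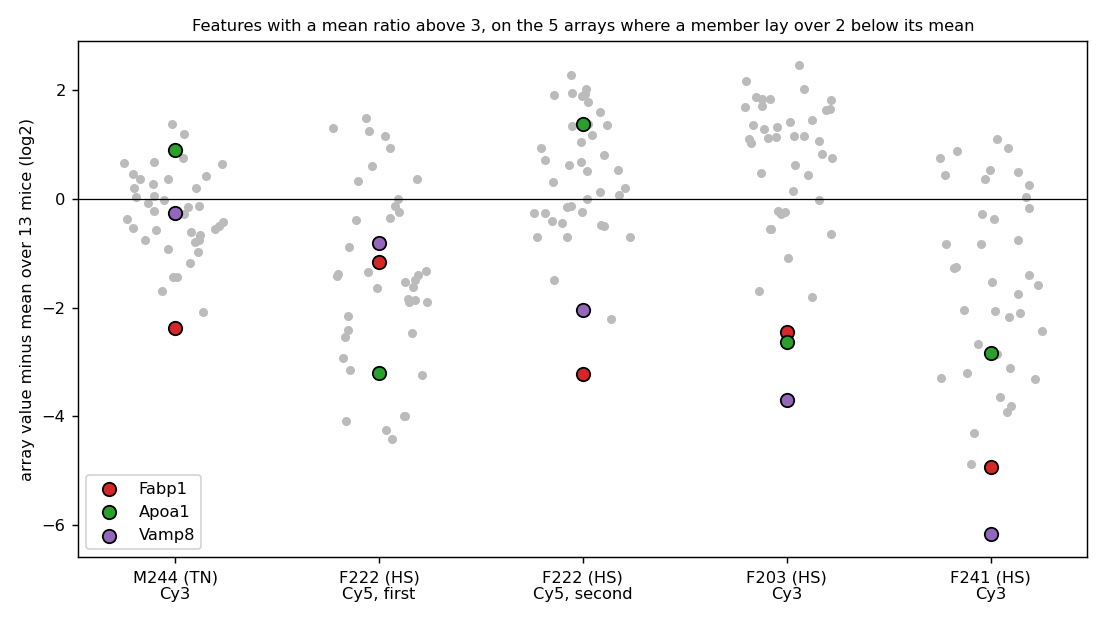
Array value minus the mean over 13 mice (vertical axis, log2) for 42 features with a mean ratio above 3, on the 5 arrays (horizontal axis) where a member lay more than 2 units below its mean; grey points are the 39 other features, spread sideways for visibility, and coloured points the members. On the array of F203 the members are the 3 lowest points, and on the Cy3 array of F241 16 grey points also lie below −2.

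The dye terms of the members were small beside their ratios. The dye term, the part of the Cy5 over Cy3 ratio that does not turn when dyes are swapped, was 0.19 (SE 0.33) for Fabp1, −0.01 (SE 0.20) for Apoa1 and −0.02 (SE 0.30) for Vamp8, over the mice with both orientations (11 for Fabp1, which lacks a Cy5 value in M244, and 12 for the others). None passed the test (limma, adjusted p = 0.727, 0.970 and 0.964), while 18.2% of features did. The intervals are wide, −0.51 to 0.89 for Fabp1. Without the Cy5 array of M244 and the Cy3 array of F241 the dye term of Vamp8 was −0.42 and passed the test (adjusted p = 0.0388), in a fit that called 502 of 1856 features. The median over the 7 TN arrays in Cy3 was 5.93 for Fabp1 and 5.45 for Vamp8, and over those in Cy5 5.80 and 4.40.

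The comparison the study was built on is heat stress against thermoneutral, with 1 ratio per mouse (dye term removed) and limma across all 1856 features. For Vamp8 the TN mice read 5.06 (F236), 5.07 (M211), 4.88 (M251), 5.16 (M243), 5.08 (F235), 4.06 (M244) and 4.99 (F223). The HS mice read 4.73 (M233), 3.79 (F222), 4.09 (M242), 0.33 (F203), 1.66 (F241) and 4.97 (M256). In HS 3 of 6 mice lay below the lowest TN mouse and 3 lay within the TN range, so the groups overlapped. The TN mean was 4.90 ± 0.38 (SD, n = 7), and that of HS mice was 3.26 ± 1.86 (SD, n = 6). The difference of −1.64 (SE 0.54, 95% interval −2.76 to −0.51) ranked 3 by p among all features, and it did not pass the adjusted threshold (limma, p = 0.00629, adjusted p = 0.999). Vamp8 was chosen with these arrays in view, so this rank is not independent evidence. Over all features 0 were called (0%) at an adjusted p of 0.05 under limma and under its version with trend and robust settings. At an unadjusted 0.05, 45 features passed, 24 of them lower in HS, which is 1.29% of those tested.

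Apoa1 had TN values of 4.59 (F236), 4.56 (M211), 4.75 (M251), 4.53 (M243), 5.45 (F235), 5.80 (M244) and 5.45 (F223). Its HS values were 4.59 (M233), 4.14 (F222), 4.88 (M242), 1.89 (F203), 3.82 (F241) and 5.20 (M256). Again 3 HS mice lay below every TN mouse, and the other 3 lay among them. The means were 5.02 ± 0.53 in TN and 4.09 ± 1.19 in HS, a difference of −0.93 (SE 0.41, interval −1.78 to −0.08, adjusted p = 0.999). Fabp1 read 5.71, 5.11, 4.92, 5.68, 5.88, 2.39 and 5.55 in the TN mice in the same order, and 5.73, 3.37, 5.52, 2.32, 3.48 and 5.55 in the HS mice. Of these only F203 lay below the lowest TN mouse, M244. The means were 5.03 ± 1.21 and 4.33 ± 1.45, and the difference was −0.70 (SE 0.56, interval −1.86 to 0.46, adjusted p = 0.999). The test called none of the members, and the intervals leave room for differences of more than 1 log2 unit in each.

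Vamp8 and Apoa1 varied more between HS mice than between TN mice, and Fabp1 varied widely in both groups; the difference in spread was not tested. Between HS mice Vamp8 had the largest SD of all 1856 features, Fabp1 ranked 5 and Apoa1 33, against a median SD of 0.53. Between TN mice Vamp8 ranked 1519 with an SD of 0.38, below the median of 0.55, and Apoa1 ranked 1013. Fabp1 ranked 3 in TN, through M244. These ranks describe the disagreement by which the genes were chosen. Other genes among the 10 highest ratios also varied more in HS. Their SDs in HS and TN were 1.13 and 0.19 for Mgst1, 0.96 and 0.45 for Ptgis, and 0.93 and 0.64 for Alb. Apob stood at 0.55 and 0.54. Less variable in HS were Serpina1 (0.51 and 0.59), Cyp2e1 (0.38 and 0.69) and Rbp4 (0.97 and 1.13). Across the HS mice, low values and wide ranges between arrays fell in the same animals, F222 and F241, and F203 with its single array was low too. M256, with a wide range for Fabp1, was not low. Value and range come from the same arrays, so 1 low array both lowers a mouse and widens its range.

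The low HS mice, F222, F203 and F241, share the letter F. Among HS mice the 3 with F identifiers averaged 3.06 ± 0.64 for Fabp1, 3.28 ± 1.22 for Apoa1 and 1.93 ± 1.74 for Vamp8 (SD, n = 3), and the 3 with M identifiers 5.60 ± 0.12, 4.89 ± 0.30 and 4.60 ± 0.46. In TN the F mice averaged 5.71 ± 0.17, 5.16 ± 0.49 and 5.04 ± 0.05 (n = 3), and the M mice 4.52 ± 1.46, 4.91 ± 0.60 and 4.79 ± 0.50 (n = 4). The HS F mice and the HS M mice did not overlap for any member. How many of all features separate in this way was not counted, so the separation cannot be read as a trait of the members. The members also share the arrays of F203 and F241, so their separations are not independent of each other. The interaction, the heat difference in F mice minus that in M mice, was −3.73 for Fabp1 (SE 0.81, interval −5.41 to −2.05), −2.92 for Vamp8 (SE 0.81, −4.60 to −1.25) and −1.86 for Apoa1 (SE 0.72, −3.34 to −0.38). By p these ranked 1, 2 and 5 of 1856 features, none past the adjusted threshold (limma, adjusted p = 0.253, 0.998 and 0.998). Here too 0% of features were called, while 22 passed an unadjusted 0.05, 16 of them below 0 (0.862%). The choice of these genes was made with their arrays in view, so the ranks are not independent evidence.

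With the letter alone, F minus M adjusted for heat, Vamp8 differed by −1.11 (SE 0.50, adjusted p = 0.995), Apoa1 by −0.62 (SE 0.40) and Fabp1 by −0.55 (SE 0.56). No member passed, at an unadjusted 0.05 0.754% of features were lower in F, and 0.0539% of features were called after adjustment.

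**Figure D3:**
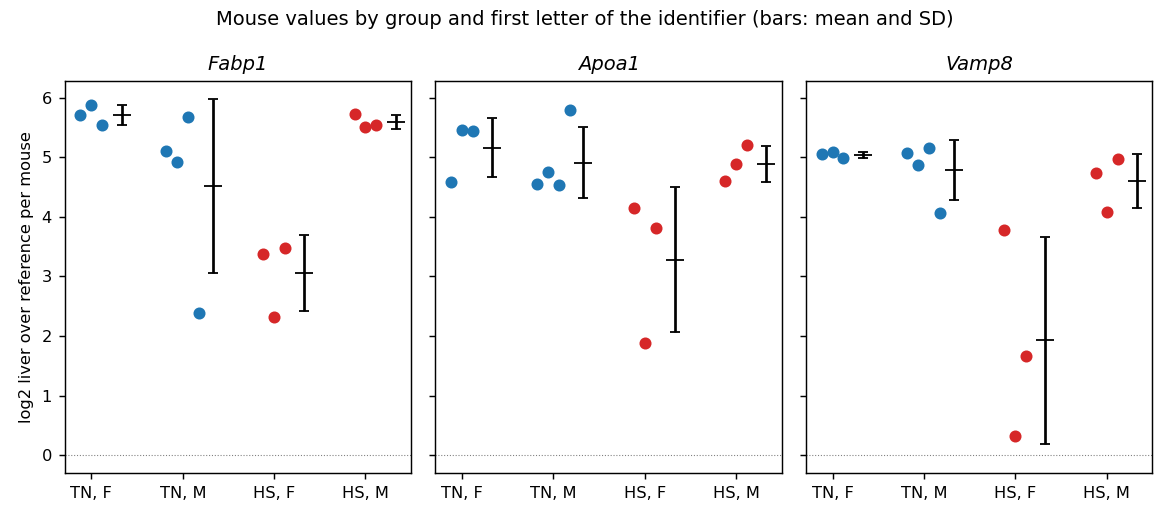
Log2 ratio of liver over reference per mouse (vertical axis) for each member, by group and by the first letter of the mouse identifier (horizontal axis); points are mice, and the black bar beside them is the mean with SD. The 3 HS mice with F identifiers lie below the 3 with M identifiers in every panel. The same separation was not counted over all features, so it cannot be read as a trait of the members.

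The differences rested on few arrays. Without the Cy3 array of F241 the heat difference was −0.08 for Fabp1, −0.59 for Apoa1 and −1.03 for Vamp8. Without mouse F203 it was −0.30, −0.49 and −1.05. Without both, that is with 5 HS mice and 12 HS arrays, it was 0.51 (SE 0.59) for Fabp1, −0.04 for Apoa1 and −0.25 for Vamp8, and the interaction was −1.46, −0.02 and −0.08. Fabp1 thus changed sign, and what was left of the Apoa1 and Vamp8 differences was within their standard errors. These arrays were left out because the members read low on them, so a move toward 0 was built in. The Cy5 array of F241, which stayed, held the highest Fabp1 value, 7.19. Without mouse F241 as a whole the heat differences of Fabp1, Apoa1 and Vamp8 were −0.57, −0.92 and −1.39. Without its Cy5 array alone they were −1.39, −1.35 and −2.39. Arrays with liver RNA in Cy5, where F203 has none, gave 0.19, −0.43 and −0.68 for heat, and those with liver RNA in Cy3 −1.51, −0.88 and −1.87. The opposite also occurred. Leaving out mouse M244 made the Fabp1 interaction −3.02 with an adjusted p of 0.0271, and leaving out F222 made that of Vamp8 −3.76 with an adjusted p of 0.0137, so the call depended on which mouse was included. For each gene this was the lowest adjusted p of 13 runs that left out 1 mouse. F222 (3.79) was the highest HS mouse with F for Vamp8. The genes were chosen with their arrays in view, so neither run counts as a call.

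**Figure D4:**
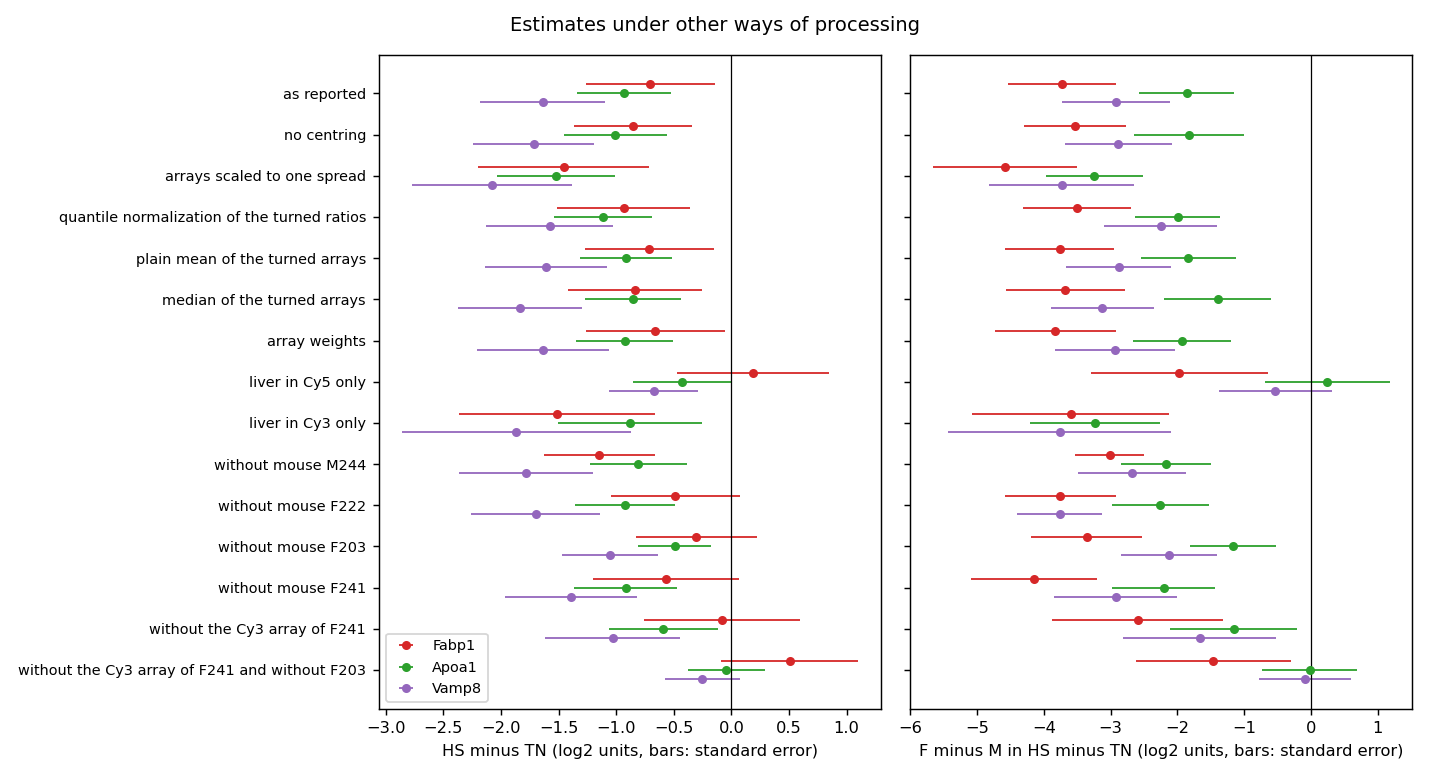
HS minus TN difference (left) and the difference between F and M mice in it (right), in log2 units with standard errors as bars, for each member under the processing named on the vertical axis. Without the Cy3 array of F241 and without F203, the Fabp1 heat difference is 0.51 and the Vamp8 interaction −0.08. Those arrays were left out because the members read low on them.

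Fabp1 and Vamp8 followed each other from array to array. On deviations from the mean of arrays with the same liver dye, their Pearson r was 0.82 over 33 arrays (Spearman 0.68), and each was the other's closest of 1855 features. Over the 13 mouse values r was 0.77. These are descriptions, since arrays of a mouse share its RNA and all arrays share the reference. Within the 19 TN arrays with both values r was 0.81 and within the 14 HS arrays 0.85, while without the 5 arrays where a member was far below its mean it was 0.48 over 28 arrays. Leaving out both arrays of M244 kept the TN value at 0.81 (18 arrays). Their spots carry the numbers 176 and 161 of 1920, and the slide layout was not used here. Among the 40 spots within 20 numbers of Fabp1 the median r with it was 0.23, and among all spots −0.01, while for Vamp8 these medians were 0.13 and −0.04; the part of position in the likeness was not tested.

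From array to array Apoa1 was closest to other genes than Fabp1 and Vamp8. Its closest named genes over 34 arrays were Serpina1 (r = 0.71), the vitamin D binding protein Gc (0.68), Cyp2e1 (0.64), the fetuin Ahsg (0.60) and the tubulin Tubb2b (0.59). Over the 13 mouse values, though, its r was 0.82 with Vamp8 and 0.49 with Fabp1, against 0.57 with Serpina1. With Gc, Cyp2e1, Ahsg and Tubb2b it was 0.56, 0.54, 0.21 and 0.72. Without mice F203 and F241 the r of Apoa1 with Vamp8 and Fabp1 was 0.05 and −0.16 over 11 mice, and that of Fabp1 with Vamp8 was 0.74. With Fabp1 its r was 0.45 over all arrays and 0.12 over TN arrays, and with Vamp8 0.59 and 0.05. Without the Cy3 arrays of F241 and F203 the r of Apoa1 was 0.15 with Fabp1 and 0.23 with Vamp8, while Fabp1 with Vamp8 stood at 0.70. Of the other named genes, Fabp1 was closest to the citrate carrier Slc25a1 (0.62), the ferritin light chain Ftl1 (0.61), Mgst1 (0.58) and Gc (0.56). Over the 13 mouse values these r were lower, at 0.07, 0.30, 0.35 and 0.10. Vamp8 was closest, among named genes other than Fabp1, to Mgst1 (0.67), Gc (0.59), Apoa1 (0.59) and Slc25a1 (0.58). Over the 13 mouse values these were 0.45, 0.46, 0.82 and 0.47, and the Spearman value with Mgst1 over arrays was 0.33. The median r over all pairs of the 39 other strong features was 0.33.

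**Figure D5:**
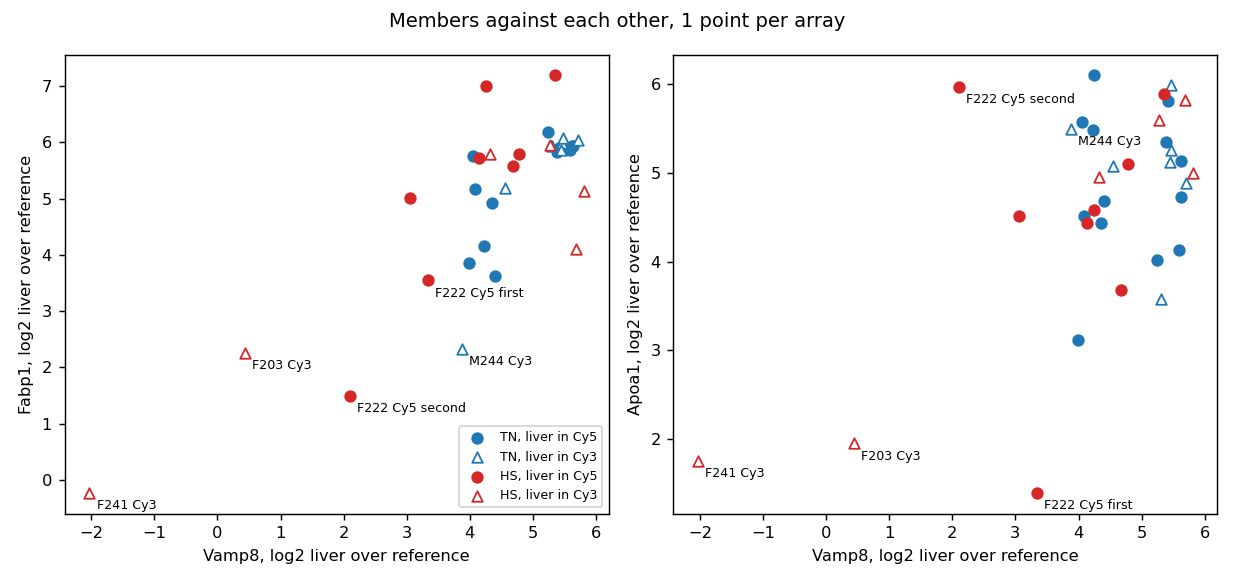
Fabp1 (left) and Apoa1 (right) against Vamp8, as log2 ratios of liver over reference with 1 point per array; TN in blue, HS in red, filled circles for liver RNA in Cy5 and open triangles for Cy3. The arrays where a member was far below its mean are named; the second Cy5 array of F222 is low for Fabp1 (1.49) and Vamp8 (2.10) and high for Apoa1 (5.97).

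Fabp1 and Vamp8 lie on the same chromosome with 40 genes between them, of which 2 were measured. Rnf103, a ubiquitin ligase gene, had a heat difference of −0.14 and an interaction of −0.15, and Tmem150a, a membrane protein gene, 0.26 and −0.32. Both interactions were closer to 0 than those of the members, which ranked 1, 2 and 5 of 1856 features by p. The members were chosen with their arrays in view, and the levels of Rnf103 and Tmem150a were only 0.17 and 1.25. No conclusion is drawn from the contrast. The median interaction over all features was −0.006, with a median standard error of 0.64, and the values of Rnf103 and Tmem150a were smaller than that error. A part of chromosome position was not tested.

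The genes that work with the members were measured in part, and no list had a gene that passed the adjusted test for heat. Of the apolipoproteins, the protein parts of lipoprotein particles, 11 of 20 were measured: 6 were above 0 and 5 below, with a median difference of 0.05, against −0.01 over all features. Apoa1 was the lowest of them. Apoe, the ligand of remnant receptors, had 0.43 (SE 0.35), Apom −0.37 (SE 0.33), Apoc4 0.25 (SE 0.27), and Apob, the structural protein of VLDL, −0.12 (SE 0.30). By level Apoa1 (4.59) and Apob (4.00) stood above Apoa5 (2.09) and Apoe (1.80). Of 16 genes of HDL metabolism 3 were measured: the hepatic lipase Lipc had a heat difference of 0.16, the HDL receptor Scarb1 0.10, and Lcat, the enzyme that Apoa1 activates, −0.14.

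Of 27 genes for fatty acid binding, uptake and activation 15 were measured, 10 above 0 and 5 below for heat (median 0.10). The bile acid and fatty acid ligase Slc27a5 had 0.59 (SE 0.39), the heart-type binding protein Fabp3 0.49 (SE 0.34) and the acyl-CoA synthetase Acsl5 0.39 (SE 0.33). The level of Fabp1 (4.71) was second to that of Alb and above those of Rbp4 (4.01) and Acsl1 (2.58), while the other measured binding proteins, Fabp3 (0.12) and Fabp7 (0.51), were near the array median. Of 34 PPARA targets 19 were measured, 10 above 0 and 9 below (median 0.03). The peroxisomal enzyme Ehhadh had 0.41 (SE 0.26), Cyp4a3 0.47 (SE 0.33) and the reductase Decr1 0.38 (SE 0.41), where Fabp1 had −0.70.

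Of 89 SNAREs and vesicle traffic genes 21 were measured, 13 above 0 and 8 below for heat (median 0.06). Vamp8 was the one with a level above 3. The syntaxins Stx8 (1.10) and Stx5 (0.84) and the SNARE Ykt6 (0.72) came next in level, and Vamp7, another endosomal SNARE, stood at 0.11. For heat, Stx5 had 0.57 (SE 0.30), the GTPase Rab10 0.42 (SE 0.26) and Rab1a −0.36 (SE 0.27). Of 32 liver transcription factors 10 were measured, 6 above 0 and 4 below (median 0.13). Nr5a2, a nuclear receptor of bile acid and lipoprotein genes, had −0.65 (SE 0.34) for heat and −1.56 (SE 0.63) for the interaction. The median interaction of the 10 factors was 0.19, so the value of Nr5a2 does not stand for the list. The clock-output factors Tef and Hlf had 0.51 (SE 0.27) and 0.33 (SE 0.26), and Ppara 0.22 (SE 0.32).

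The tissue label was checked on plasma protein genes of hepatocytes: 33 of 58 were measured, 30 with a mean ratio above 0 and 8 above 3. For heat 19 were above 0 and 14 below (median 0.05). The carboxypeptidase Cpn1 had 0.72 (SE 0.26), protein C (Proc) 0.58 (SE 0.33), afamin (Afm) 0.45 (SE 0.26) and Cpb2 −0.53 (SE 0.33), none past the adjusted threshold. The mean ratio of this list per mouse ran from 1.35 to 2.17 in TN and from 1.44 to 2.24 in HS, so the lowest HS mouse stood above the lowest TN mouse. Markers of other cells were thinly covered. For intestine, which also makes Fabp1 and Apoa1, 1 of 13 was measured (Apoa4, −0.27 to 2.34 in TN and 0.39 to 1.79 in HS). For macrophages 3 of 15 were measured (Slc11a1, Clec4f, Lyz2), with means of −1.07 to 0.11 in TN and −0.45 to 0.19 in HS. For stellate cells and matrix 4 of 13 were measured (Vim, Sparc, Fn1, Timp1), at −2.99 to −1.37 and −3.06 to −1.72. For exocrine pancreas, which is rich in Vamp8, 2 of 19 were measured (Prss1, Pnliprp1), at −1.44 to 0.23 and −0.86 to 0.27. Leukocytes (Nkg7, 1 of 20), red cells (Hba-a1, 1 of 12), bile duct (Slc4a2, 1 of 9) and fat (Cfd, 1 of 7) had a single gene each, and endothelium 0 of 10. None of these genes passed the adjusted test for heat, and the part of other cells in the members' values was not tested. In bulk liver, fewer cells of a type and less RNA per cell cannot be told apart.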

How the data were processed

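Liver RNA of 13 mice was compared with a universal mouse reference RNA on 34 in-house 2-colour arrays, 21 with liver RNA in Cy5 and 13 in Cy3, after indirect amino-allyl labelling, per the labels' protocols. The values deposited by the authors are log2 ratios, 1 per spot and array; the sources used here do not give their background correction, normalization or spot filters. The log base was settled from the values: 382 of 382 values below −4.5 are log2 of ratios with 3 decimals (within 0.0051), against 29 of 382 for natural logarithms. At the lowest member value, −6.64, that rounding allows an error of up to 0.074. The values ran as Cy5 over Cy3 and were not turned for swapped dyes: once turned by the dye labels, 23 to 31 of 33 plasma protein genes lay above the median on each array. Deposited array medians ran from −0.88 to 1.17. No intensities were used here, so signal over background is unknown, and the number of arrays and mice limits the precision. Of all values 11 (0.0169%) were missing, 1 of them a member's (Fabp1, Cy5 array of M244), which was left out of its fit.

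Each array was centred on its median, and the spots of a symbol were averaged, which gave 1856 features from 1920 spots (1083 spots with 1 symbol, 7 with several, 830 not listed in the platform annotation). Per feature, least squares on 13 mouse terms and 1 dye term gave 1 ratio per mouse, the replicate. limma 3.58.1 in R 4.3.3 (lmFit, eBayes, two-sided) compared these, with a value required in at least 4 mice of each group, p-values adjusted by Benjamini and Hochberg's method over the whole table, and 0.05 as the threshold. Fits with the letter, its interaction with heat, and a one-sample fit of the dye term followed the same steps, and the fit was tested on simulated data. Named were the members, the 10 named genes of highest ratio, the 5 closest to each member by Pearson r, and from gene lists up to 4 genes by p or level; genes named beyond these (Apob, Fabp7 and the genes between Fabp1 and Vamp8 among them) were chosen after their values were seen. Alternatives were other scaling, summaries and weights, 1 dye orientation, the mouse as a random block, and leaving out arrays or mice. The members and lists were chosen with earlier results of these data known. Figures were drawn with matplotlib 3.10.9.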

Additional observations from a re-analysis of the deposited data

Results flagged for a closer look

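Among the 7 TN mice, M244 stood apart from the others for 2 of the members, by the gap to its neighbour as a share of the whole range. Its Fabp1 ratio of 2.39 lay below the next TN mouse at 4.92, a gap of 0.726 of the range where 0.568 is the critical value for 7 mice. That ratio rests on the Cy3 array alone, since the Cy5 value was missing. Its Vamp8 ratio of 4.06 lay below the next at 4.88, a gap of 0.741 of the range, with 4.24 on its Cy5 array, near the TN median of 4.40 for that dye, and 3.88 on its Cy3 array, the lowest TN value for that dye. Chance marks about 1 in 20 groups in this way where groups are not chosen by their values. The 6 groups looked at belong to genes chosen with their disagreeing arrays in view, so that rate does not hold for them.

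The heat difference of Fabp1 ran in opposite directions by the letter of the identifier: the 3 HS mice with F lay below the mean of the TN mice with F, and the 3 HS mice with M lay above the mean of the TN mice with M. That mean of the TN mice with M, 4.52, includes M244 at 2.39, which rests on 1 array. The TN mouse M243 (5.68) lay above the HS mice M242 (5.52) and M256 (5.55). The interaction was −3.73 and did not pass the adjusted threshold (limma, adjusted p = 0.253). It was −1.46 without the Cy3 array of F241 and without F203, which were left out because the members read low there. Without M244 the interaction was −3.02.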

How the results depend on the processing

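The log2 level of the members moved by less than 1 SD between mice under each of the 5 alternatives run (Fabp1 4.65 to 5.45, Apoa1 4.60 to 4.85, Vamp8 4.22 to 4.52). For heat, 16 alternatives, of which the one without the Cy3 array of F241 and without F203 was chosen after seeing the data, left Apoa1 and Vamp8 below 0, and Fabp1 turned to 0.19 with liver RNA in Cy5 only and to 0.51 without the Cy3 array of F241 and without F203; the cause was not tested. With arrays scaled to one spread the heat differences were −1.46, −1.52 and −2.08 for Fabp1, Apoa1 and Vamp8, and with the mouse as a random block −0.68, −0.67 and −1.32. The interaction of Apoa1 turned to 0.25 in Cy5 only, and that of Fabp1 and Vamp8 stayed below 0 in 11 alternatives, most of them chosen after seeing the data (adjusted p from 0.150 and from 0.315). Leaving out 1 mouse gave heat differences of −1.14 to −0.30 (Fabp1), −1.14 to −0.49 (Apoa1) and −1.97 to −1.05 (Vamp8), interactions of −4.15 to −3.02, −2.25 to −1.16 and −3.76 to −2.12, and letter differences of −1.03 to −0.20, −0.81 to −0.23 and −1.34 to −0.62. Leaving out 1 array, also chosen after seeing the data, gave heat differences of −1.39 to −0.08, −1.35 to −0.59 and −2.39 to −1.03 and interactions of −5.22 to −2.59, −2.68 to −1.16 and −4.38 to −1.67. Without the Cy5 array of M244 and the Cy3 array of F241, the letter difference of Fabp1 was 0.027, its dye term −0.16 and the dye term of Vamp8 −0.42. The dye terms of Apoa1 and Vamp8 changed sign with no centring (0.16 and 0.15) and without single mice (−0.20 to 0.056 and −0.36 to 0.11), as did that of Fabp1 (−0.16 to 0.34). Features called for the dye term were 190 with no centring and 502 without those 2 arrays, against 338, and 1 with arrays scaled to one spread, without M244 or without F222 against 0 for the interaction. Testing each spot on its own gives the same member values, since each has 1 spot. No paired analysis was possible because the groups share no replicate numbers.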
